A study of Rattus norvegicus with 4 samples.

Results

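The 10 genes described here are imprinted genes tied to growth: Igf2, Igf2r, Dlk1, Peg3, Peg10, Mest, Plagl1, Grb10, Ndn and Sgce. They were chosen by name, with earlier results of these data known. Their members on the array are all probe sets whose single gene symbol is 1 of these names. That gave 15 of the 31042 probe sets that are not controls, for 9 of the 10 genes; no probe set carried the single symbol Peg3. Of the 15, 12 were bright enough to be tested, among 18625 tested in all, and every one of the 9 genes kept at least 1.

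The samples were the telencephalon, the front of the embryonic forebrain, of Sprague-Dawley rat embryos at E11.5. There were 2 arrays of homozygous Pax6 mutant (rSey2/rSey2) tissue and 2 of wild-type tissue. Pax6 is a paired-box transcription factor of the forebrain and eye; the labels give the rSey2 allele by name only. The design text speaks of 13 telencephalons and of a repeat in each genotype, so RNA of several embryos was pooled, and whether each array had its own pool is not stated. In such tissue, fewer cells of a type cannot be told apart from less RNA per cell. Both arrays of a genotype are titled as biological repeats, yet neither litters nor separate pools are named. The p-values therefore rest on the spread between such arrays, and part of it may be technical.

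An imprinted gene is transcribed mainly from the copy inherited from 1 parent, because the parental copies differ in DNA methylation at a control region. Many imprinted genes act on growth of the embryo and placenta: paternally expressed ones such as Igf2 tend to promote it, and maternally expressed ones such as Igf2r, Grb10 and Cdkn1c tend to restrain it. Several are also active in the developing brain, where progenitors, vessels and meninges can each be a source. The array measures total transcript and does not separate the parental copies.

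The values are GCRMA expression values on the log2 scale, so a difference of 1 is a doubling. Per probe set, the mutant minus wild-type difference was fitted with limma and is given with its standard error (SE). The mutant arrays had medians of 8.22 and 8.35 over the tested probe sets, and the wild-type arrays 8.24 and 8.33. The Pax6 probe set read 11.78 and 11.63 in the mutant arrays and 11.75 and 11.85 in the wild-type arrays, so its level does not check the genotype labels. Of the markers fixed for telencephalic neuroepithelium, all 11 with a probe set of their own were bright enough to be tested, among them Sox2, Emx2, Lhx2 and Six3. In each pair or run of values below, replicate 1 stands before replicate 2.

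The start regions of Plagl1 and of the pair Peg10 and Sgce are shown, because Plagl1 was the member whose genotypes lay farthest apart for their spread and because Peg10 and Sgce share a start region. Both are RefSeq windows of 300 bases on the rat assembly GRCr8, reaching from 250 bases before the gene start to 50 bases after it. The Plagl1 window is chr1:9297214-9297513 on the plus strand, and capitals mark its CpG dinucleotides, the sites of DNA methylation. The Peg10 window is chr4:33808776-33809075 on the plus strand. Its capitals on the left mark the first 13 bases of Sgce, which is read leftwards from the other strand, and its capitals on the right mark the first 50 bases of Peg10.
Plagl1: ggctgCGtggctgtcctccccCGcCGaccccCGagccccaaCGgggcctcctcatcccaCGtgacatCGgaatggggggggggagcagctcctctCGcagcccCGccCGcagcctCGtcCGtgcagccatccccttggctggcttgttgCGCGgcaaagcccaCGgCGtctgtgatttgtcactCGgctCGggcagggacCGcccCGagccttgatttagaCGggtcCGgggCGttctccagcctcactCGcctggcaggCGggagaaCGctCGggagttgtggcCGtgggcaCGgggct
Peg10 and Sgce: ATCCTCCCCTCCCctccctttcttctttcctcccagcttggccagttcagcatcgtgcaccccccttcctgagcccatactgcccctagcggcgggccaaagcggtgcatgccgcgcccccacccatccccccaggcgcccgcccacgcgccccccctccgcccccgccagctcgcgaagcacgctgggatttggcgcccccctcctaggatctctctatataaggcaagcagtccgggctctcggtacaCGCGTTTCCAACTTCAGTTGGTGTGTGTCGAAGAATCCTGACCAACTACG
The starts of Sgce and Peg10 lie 238 bases apart, head to head. The table held 11 windows for the 10 genes, since Igf2 had 2 starts. The Plagl1 window holds 29 CpG dinucleotides, beside a median of 7 over all 33469 windows. Over the members the number ran from 7, at 1 of the Igf2 starts, to 45 at Dlk1 and 44 at Grb10. No methylation was measured in these samples.

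Across the 12 tested probe sets the genotype differences were small. They ran from -0.17 for Ndn to 0.55 for Peg10 with a median of 0.06, beside a median of 0 over all tested probe sets, and 10 of the 12 were under 0.2 in size. The median size was 0.09 for the members and 0.10 over all tested probe sets. The mutant mean was higher for 9 probe sets and lower for 3. By gene, each at its brightest probe set, it was higher for 7 of 9, against 49.9% of all tested genes. Of the 12, 0 passed an adjusted p of 0.05 in limma, and 0% of all tested probe sets did. Over all tested genes, each at its brightest probe set, the differences reached -7.26, and even that gene did not pass. Not passing, here and below, therefore does not show that a gene is unchanged. At an unadjusted p under 0.05 the count was 1 of 12, against 3.65% of all tested probe sets. Both mutant arrays lay above both wild-type arrays for 2 probe sets, Plagl1 and Sgce, against 11.4% of all tested probe sets. Both lay below for 1, Ndn, against 11.8% of all. The sign of the members' median depended on single arrays: with mutant replicate 2 left out it was -0.02, with wild-type replicate 1 left out -0.03, and with mutant replicate 1 left out 0.16. With 2 arrays a genotype, the smallest two-sided p that an exact permutation test allows is 0.333, and that test was not run.

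**Figure D1:**
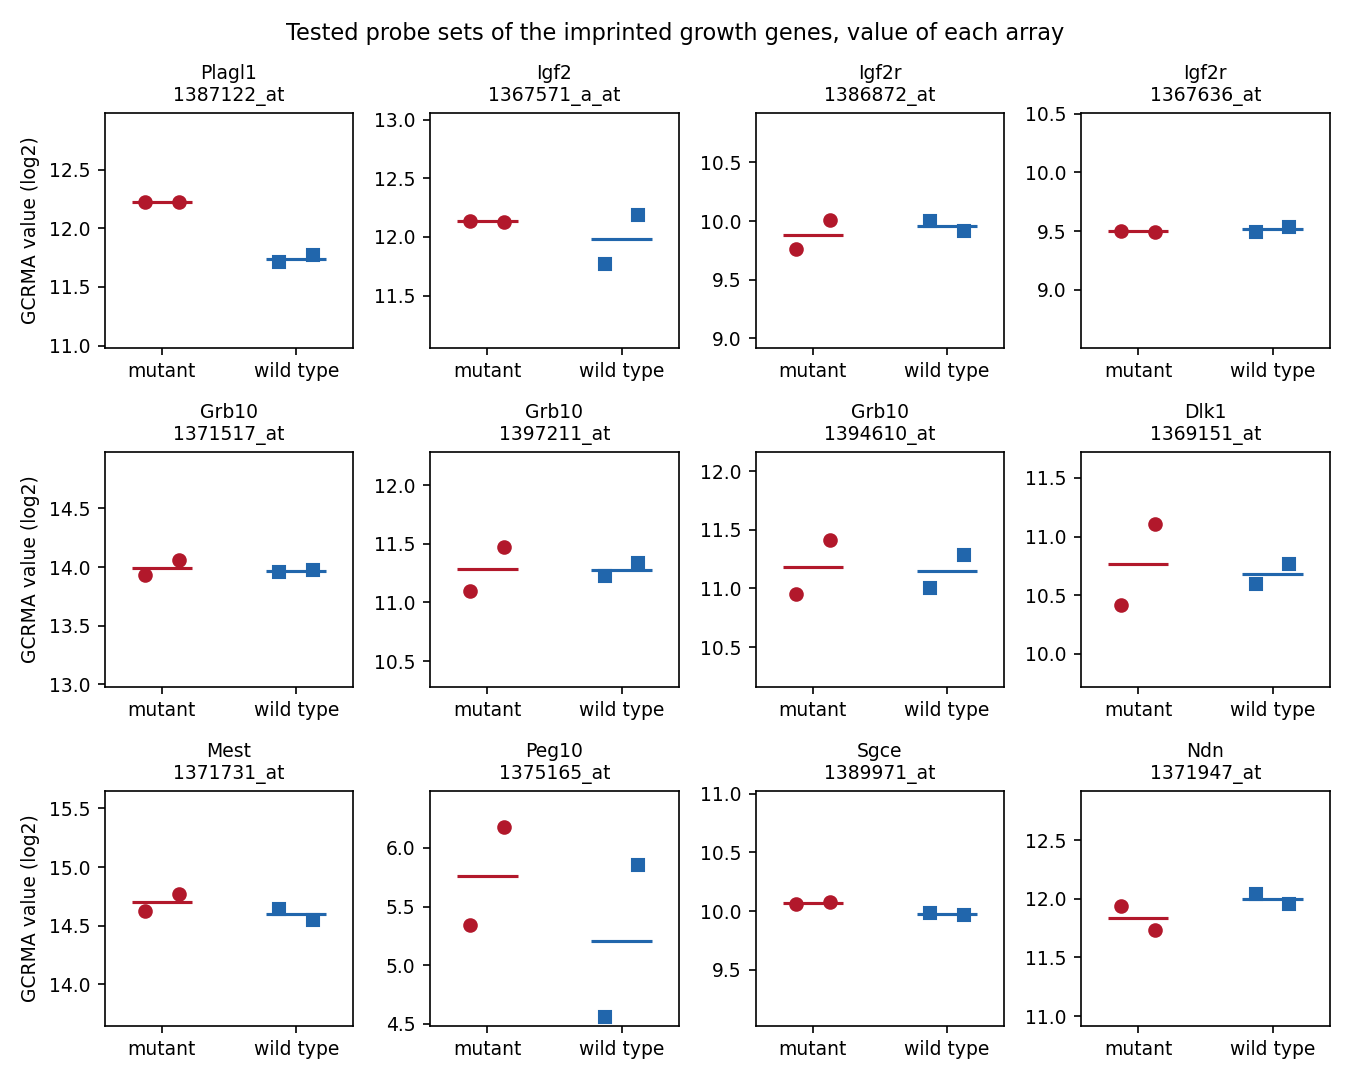
GCRMA value (log2) of each array for the 12 tested probe sets, mutant arrays as red circles on the left and wild-type arrays as blue squares on the right, replicate 1 left of replicate 2; lines are genotype means, and each panel spans 2 log2 units. The Plagl1 points of the mutant stand at 12.23 and 12.22, above both wild-type points, and the Peg10 points spread widely in both genotypes.

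Plagl1, also known as Zac1, encodes a zinc finger transcription factor that is paternally expressed and can arrest the cell cycle. Its probe set read 12.23 and 12.22 in the mutant arrays, against 11.71 and 11.77 in the wild-type arrays. The genotypes did not overlap, and a mutant array exceeded a wild-type array by 0.45 to 0.51 in all 4 pairs that can be formed. The means were 12.22 ± 0.004 in the mutant and 11.74 ± 0.04 in wild type (SD, n = 2 each). The difference was 0.48 (SE 0.07), with a 95% interval from 0.27 to 0.70, and corresponds to 1.40-fold. Its unadjusted p of 0.00496 in limma did not survive the adjustment over all tested probe sets (limma adjusted p = 1). Of all tested probe sets, 4.49% differed by at least this size, and 0.424% had an unadjusted p as low or lower. The difference ran from 0.45 to 0.51 over the 11 alternative settings and the adjusted p from 0.590 to 1.

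Most erythroid and endothelial markers also had higher means in the mutant arrays. Of 13 tested erythroid genes, 12 had a higher mutant mean, against 49.9% of all tested genes, with a median difference of 0.43, and 8 lay higher without overlap, against 12.2% of all tested genes. The summed linear signal of the erythroid list, in log2, was 16.26 and 16.27 in the mutant arrays and 16.05 and 16.06 in the wild-type arrays. Such a sum, here and for the other lists, rests mostly on the brightest genes. Here these were the globin genes Hbe1, at 15.40 and 15.41 in the mutant arrays, and Hbz, at 14.97 and 14.98. In the wild-type arrays Hbe1 read 15.22 and 15.16 and Hbz 14.75 and 14.85. Hemgn, a nuclear protein of red cell precursors, differed by 0.83 (SE 0.08), and the red cell anion exchanger Slc4a1 by 0.94 (SE 0.32). Epb42 was the 1 erythroid marker under the dim level of 3.21. Of 14 endothelial genes, 13 had a higher mutant mean, against 49.9% of all tested genes, with a median of 0.18 and 5 without overlap on the higher side. Without mutant replicate 2 the endothelial count was 9 and the median 0.10. The endothelial sum in log2 was 12.17 and 12.37 in the mutant arrays and 12.03 and 12.04 in the wild-type arrays. Plvap, a protein of endothelial fenestrae, differed by 0.65 (SE 0.18), and Sox18, a transcription factor of vessels, by 0.39 (SE 0.11); no endothelial gene was dim in all its probe sets. None of these genes passed the adjusted threshold. Their part in the Plagl1 difference was not tested.

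Igf2 encodes insulin-like growth factor 2, the main fetal growth factor of rodents, expressed from the paternal copy. Its bright probe set read 12.14 and 12.13 in the mutant arrays, against 11.77 and 12.19 in the wild-type arrays. The second wild-type array lay above both mutant arrays, so the groups overlap. The means were 12.13 ± 0.01 in the mutant and 11.98 ± 0.29 in wild type (SD, n = 2 each), a difference of 0.16 (SE 0.18; limma adjusted p = 1). The 95% interval ran from -0.38 to 0.69. Without wild-type replicate 1 the difference was -0.05. The other 3 Igf2 probe sets, all designed on the same sequence record, were dim: 1 lay exactly at the lowest value of the table, 2.07, in all 4 arrays, and the other two stayed between 2.07 and 2.19. Nothing can be said of a difference there.

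Igf2r encodes the receptor that clears Igf2 by carrying it to lysosomes, and in rodents it is expressed from the maternal copy. The brighter probe set read 9.76 and 10.01 in the mutant arrays, against 10.00 and 9.92 in the wild-type arrays. The second read 9.50 and 9.49 in the mutant arrays, against 9.49 and 9.54 in the wild-type arrays. The genotypes overlapped in both. The differences were -0.07 (SE 0.12) and -0.02 (SE 0.07), and the interval of the second, from -0.23 to 0.19, was the narrower. Without mutant replicate 1 the first was 0.05, and without wild-type replicate 2 the second was 0.002.

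Grb10 encodes an adaptor protein that binds the insulin and IGF1 receptors and dampens their signal; in the mouse it is expressed from the maternal copy in most tissues and from the paternal copy in neurons. Its brightest probe set read 13.93 and 14.06 in the mutant arrays, against 13.96 and 13.97 in the wild-type arrays, with an SE of 0.08 on a difference of 0.03. Another read 11.09 and 11.48 in the mutant arrays, against 11.22 and 11.33 in the wild-type arrays, a difference of 0.006 (SE 0.17). The third read 10.95 and 11.41 in the mutant arrays, against 11.00 and 11.29 in the wild-type arrays, a difference of 0.04 (SE 0.22). In all 3 the mutant arrays bracketed the wild-type arrays. The 3 probe sets gave the same order of arrays, with replicate 2 above replicate 1 in both genotypes.

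Dlk1 encodes a transmembrane protein of the Delta family with effects on fat cells, growth and neurogenesis, and is paternally expressed. It read 10.42 and 11.11 in the mutant arrays, against 10.59 and 10.76 in the wild-type arrays, so the mutant arrays were the lowest and the highest. The means were 10.76 ± 0.49 in the mutant and 10.68 ± 0.12 in wild type (SD, n = 2 each), a difference of 0.09 (SE 0.29; limma adjusted p = 1). Its 95% interval, from -0.79 to 0.96, leaves room for either direction. The difference was -0.26 without mutant replicate 2 and 0.43 without mutant replicate 1.

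Mest encodes a protein with an alpha/beta hydrolase fold whose loss slows growth in the mouse, and is paternally expressed. It read 14.63 and 14.77 in the mutant arrays, against 14.64 and 14.55 in the wild-type arrays. The genotypes overlapped by the narrow margin between the first array of each. The difference was 0.10 (SE 0.09; limma adjusted p = 1), and 0.03 without mutant replicate 2.

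Peg10, which derives from a retrotransposon and is needed for the placenta in the mouse, was the dimmest tested member and the most variable. It read 5.35 and 6.18 in the mutant arrays, against 4.56 and 5.85 in the wild-type arrays. Its difference of 0.55 (SE 0.61; limma adjusted p = 1) was the largest of the 12 in size, yet the 2 wild-type arrays stood 1.29 apart and the 2 mutant arrays 0.83. The 95% interval ran from -1.29 to 2.40, and without wild-type replicate 1 the difference was -0.09.

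Sgce, the neighbour that starts from the same region as Peg10, encodes epsilon-sarcoglycan, a membrane protein whose loss on the paternal copy causes a movement disorder in humans. It read 10.06 and 10.08 in the mutant arrays, against 9.98 and 9.97 in the wild-type arrays. The genotypes did not overlap, with pairings 0.08 to 0.11 apart. The difference of 0.10 (SE 0.07) did not pass in limma (adjusted p = 1), and its 95% interval ran from -0.11 to 0.30. The spread within each genotype was 0.02 or less for Sgce and at least 0.83 for Peg10, so Sgce did not share the spread of Peg10.

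Ndn encodes necdin, a MAGE family protein that restrains proliferation and promotes survival of neurons, and is paternally expressed. It read 11.94 and 11.74 in the mutant arrays, against 12.04 and 11.96 in the wild-type arrays. Both mutant arrays were lower, and the closest pairing differed by -0.02. The difference of -0.17 (SE 0.11; limma adjusted p = 1) was -0.06 without mutant replicate 2 and -0.27 without mutant replicate 1.

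**Figure D2:**
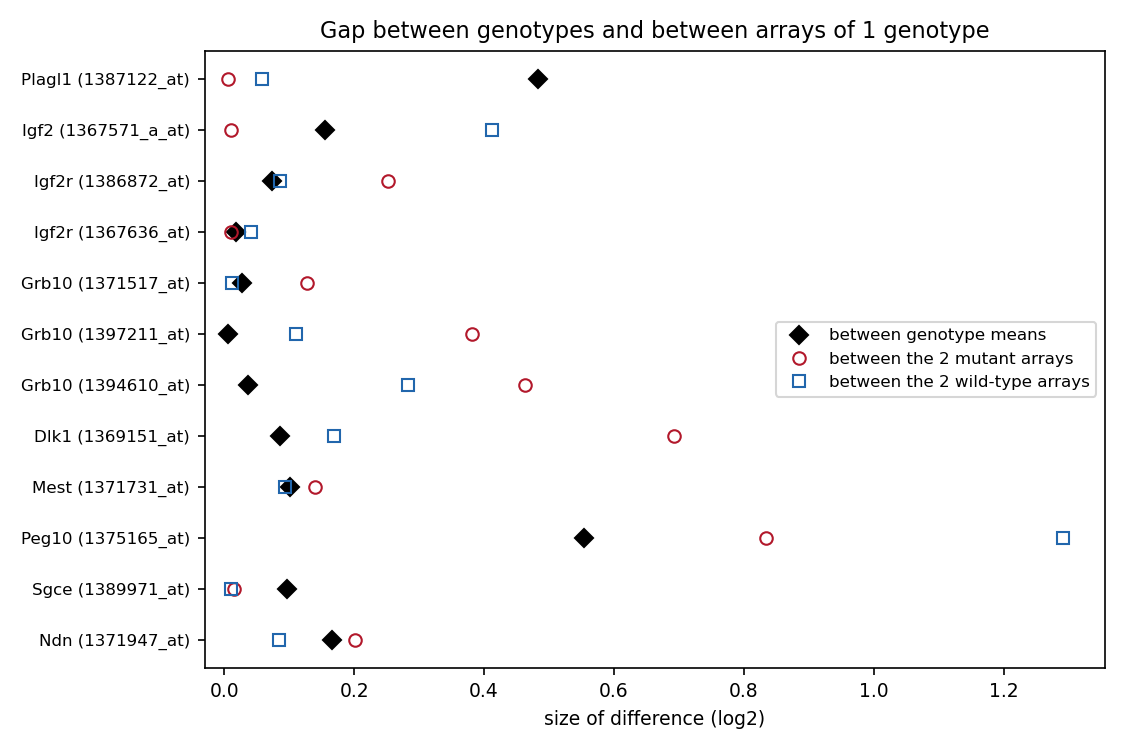
Size of the difference between genotype means (black diamonds), between the 2 mutant arrays (red circles) and between the 2 wild-type arrays (blue squares), in log2, for each tested probe set of the members. The diamond lies to the right of both open symbols for Plagl1 and Sgce; for the other 10 probe sets at least 1 within-genotype gap is larger.

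For 10 of the 12 probe sets the gap between the 2 arrays of at least 1 genotype was larger than the difference between the genotypes, against 84.6% of all tested probe sets. Plagl1 and Sgce were the exceptions. Replicate 2 stood above replicate 1 in both genotypes for 5 probe sets, those of Grb10, Dlk1 and Peg10, against 42.8% of all tested probe sets. The members thus shared this direction about as often as other probe sets did.

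Peg3 encodes a zinc finger protein with effects on growth and maternal behaviour in the mouse, and its own level was not measured by a probe set of its own name. Apeg3, an RNA transcribed antisense to Peg3 and next to it in the GRCr8 gene order, had 4 tested probe sets. The sources used here do not give the strand these probes read, so Peg3 and Apeg3 transcripts cannot be told apart. The brightest read 13.68 and 13.53 in the mutant arrays, against 13.15 and 13.25 in the wild-type arrays, without overlap. Its difference was 0.40 (SE 0.10; limma unadjusted p = 0.0215, adjusted p = 1), and 0.30 when the 4 probe sets were averaged. Of the others, those at 0.47 (SE 0.30) and 0.44 (SE 0.37) overlapped between the genotypes, and the dimmest lay on the other side at -0.11 (SE 0.09), so the probe sets disagree.

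The genes beside the members in GRCr8 gene order were taken by position from the list of other imprinted genes described below. That list, like the members, was chosen with earlier results of these data known. There were 15 tested imprinted neighbours with at most 20 genes between. Of these, 9 had a higher mutant mean, against 49.9% of all tested genes, and 6 a lower one. An unadjusted p under 0.05 in limma was found for 3, against 3.59% of all tested genes. These 3 were Apeg3, Calcr near Peg10 and Cdkn1c near Igf2, and the last 2 are described with the other imprinted genes. Calcr was bright enough to be tested only through its mutant arrays. Igf2 lies near H19, a maternally expressed noncoding RNA that shares its control region. H19 read 12.09 and 12.68 in the mutant arrays, against 11.91 and 12.50 in the wild-type arrays, a difference of 0.17 (SE 0.34) within the spread. That spread was shared, with replicate 2 above replicate 1 by 0.59 in both genotypes. With the replicate number as a block, the limma unadjusted p of H19 was 0.084 and its adjusted p 0.736. Dlk1 lies near Meg3, a maternally expressed noncoding RNA. The brighter Meg3 probe set differed by 0.05 (SE 0.15), with 10.58 and 10.92 in the mutant arrays and 10.70 and 10.71 in the wild-type arrays. The dimmer one differed by 0.38 (SE 0.13) and did not overlap.

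Casd1, on the other side of Sgce from Peg10, differed by 0.01 (SE 0.43) in its brighter probe set. Copg2, a coat protein subunit beside Mest, differed by -0.12 (SE 0.15), and Ddc, the decarboxylase of dopamine and serotonin synthesis near Grb10, by 0.07 (SE 0.14). Peg12, in the Ndn domain, read 10.51 and 10.40 in the mutant arrays, against 10.60 and 10.59 in the wild-type arrays, a difference of -0.14 (SE 0.08), or -0.08 without mutant replicate 2. Like Ndn it was lower in both mutant arrays, as were 12.1% of all tested genes, and neither passed the adjusted threshold. The closest Peg12 pairing, of -0.08, was between mutant replicate 1 and wild-type replicate 2, whose array medians were 8.22 and 8.33. The actin regulator Cobl near Grb10 (0.06, SE 0.21) and Usp29 near Peg3 (0.02, SE 0.07) read under 5 in all 4 arrays. Usp29 read the same value, 4.13, in both wild-type arrays, so its small difference may not be a measured one. The remaining neighbours were the tetraspanin Cd81 at -0.05 (SE 0.13), Nap1l4 at -0.10 (SE 0.08) and Tssc4 at -0.10 (SE 0.17) on the side of Igf2, and the paraoxonase Pon2 at -0.05 (SE 0.19) near Peg10.

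Of 68 further imprinted genes listed from the rodent literature, 49 had a probe set of their own symbol and 32 were tested. Each gene is represented by its brightest probe set. The mutant mean was higher for 17 and lower for 15, with a median of 0.01 beside 0 over all 9840 tested genes. In limma 0 of the 32 passed the adjusted threshold and 3 had an unadjusted p under 0.05, against 3.59% of all tested genes. Both mutant arrays lay above both wild-type arrays for 7 genes, against 12.2% of all tested genes, and below for 2, against 12.1%.

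Cdkn1c encodes p57, a cyclin-dependent kinase inhibitor that is maternally expressed and restrains growth. It read 12.21 and 12.11 in the mutant arrays, against 11.40 and 11.71 in the wild-type arrays, a difference of 0.61 (SE 0.14; limma unadjusted p = 0.0199, adjusted p = 1). The genotypes did not overlap, and leaving out 1 array gave 0.46 to 0.76. In the mouse, Plagl1 is known to act on a network of imprinted genes that includes Cdkn1c, Igf2, H19 and Dlk1. Side by side, the differences here were 0.48 for Plagl1 and 0.61 for Cdkn1c, against 0.16 for Igf2, 0.17 for H19 and 0.09 for Dlk1, and these last 3 overlapped between the genotypes. Whether the genes differ from each other in response was not tested.

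Calcr, the calcitonin receptor, read 3.81 and 3.78 in the mutant arrays, against 2.91 and 3.09 in the wild-type arrays. The wild-type arrays lay under the dim level of 3.21, and the difference of 0.79 (SE 0.10; limma adjusted p = 1) was 0.32 with a pseudocount of 16. Nnat, a small membrane protein of the developing brain that is paternally expressed, read 14.31 and 14.61 in the mutant arrays, against 13.98 and 14.22 in the wild-type arrays. Its difference was 0.36 (SE 0.16), and that of Blcap, which hosts Nnat in an intron, was 0.39 (SE 0.19). Neither overlapped in the probe set shown, and neither passed. Without wild-type replicate 1 the difference was 0.24 for Nnat and 0.20 for Blcap, and without mutant replicate 2 that of Nnat was 0.21.
The other genes named by size lay on the lower side and overlapped: Trappc9 at -0.56 (SE 0.45), Osbpl5 at -0.38 (SE 0.27) and the amino acid transporter Slc38a4 at -0.28 (SE 0.47). Without mutant replicate 1 Trappc9 was at -0.01, and without wild-type replicate 2 Osbpl5 was at -0.12 and Slc38a4 at 0.14.

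**Figure D3:**
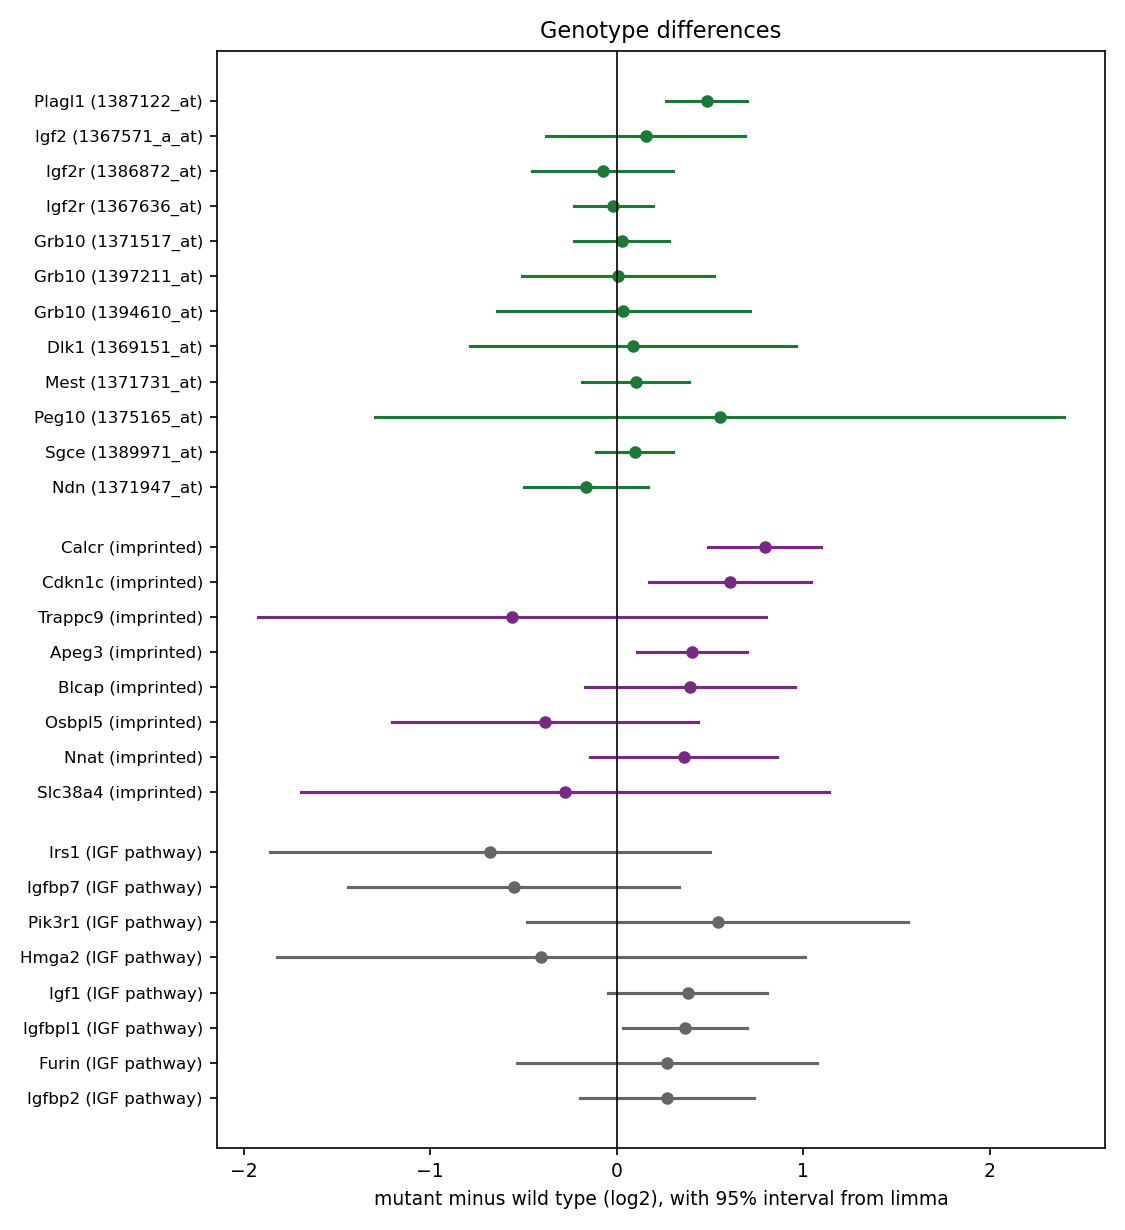
Mutant minus wild-type difference (log2) with its 95% interval from limma for the 12 tested probe sets of the members (green) and for the 8 genes with the largest differences in the list of other imprinted genes (purple) and in the IGF pathway list (grey). Among the members the interval of Plagl1, from 0.27 to 0.70, is the 1 that does not include 0; no gene shown passed the adjusted threshold.

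Igf2 acts through the receptors Igf1r and Insr, which signal by way of Irs adaptors and PI3 kinase, while Igfbp proteins bind it outside the cell. Of 45 listed pathway genes, 33 were tested, with a higher mutant mean for 24, a lower one for 9 and a median of 0.06. Again 0 passed the adjusted threshold in limma and 1, Igfbpl1, had an unadjusted p under 0.05, against 3.59% of all tested genes. Without mutant replicate 2 the count of genes with a higher mutant mean was 12. There the median was -0.07, and it ran up to 0.16 without mutant replicate 1. The genotypes did not overlap for 5 of the 33 genes on the higher side, against 12.2% of all tested genes, and for 4 on the lower side, against 12.1%.

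Among the ligands and binding proteins, Igf1 read 7.49 and 7.22 in the mutant arrays, against 7.06 and 6.90 in the wild-type arrays, a difference of 0.38 (SE 0.14). Its 2 dimmer probe sets gave 0.42 (SE 0.29) and -0.16 (SE 0.08), so they disagree. Igfbp2 read 13.13 and 13.34 in the mutant arrays, against 12.83 and 13.10 in the wild-type arrays, a difference of 0.27 (SE 0.15). Igfbpl1 differed by 0.37 (SE 0.11; limma adjusted p = 1) and Igfbp7 by -0.55 (SE 0.29). Without mutant replicate 1 Igfbp7 was at -0.23 and Igf1 at 0.25, and without wild-type replicate 1 Igfbp2 was at 0.13. All 4 were without overlap in these probe sets, and none passed. Igfbp3, named outside the rule on size, differed by 0.02 (SE 0.34) in its brighter probe set, with overlap. Its dimmer probe set differed by 0.51 (SE 0.12; limma unadjusted p = 0.020) without overlap, and did not pass either.

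Among the receptors, the brighter Igf1r probe set differed by 0.19 (SE 0.11) and the brighter Insr probe set by 0.05 (SE 0.12). The dimmer probe sets differed by 0.29 (SE 0.36) for Igf1r and by -0.44 (SE 0.53) for Insr, with overlap in both. Downstream, the adaptor Irs1 read 5.68 and 5.91 in the mutant arrays, against 6.01 and 6.95 in the wild-type arrays, a difference of -0.68 (SE 0.39) that rests on the second wild-type array. Without wild-type replicate 2 it was -0.21. The PI3 kinase subunit Pik3r1 differed by 0.54 (SE 0.33), the protease Furin by 0.27 (SE 0.26) and the chromatin protein Hmga2 by -0.41 (SE 0.46). Pik3r1 gave 0.14 without mutant replicate 2, Hmga2 gave 0.16 without mutant replicate 1, and Furin gave -0.02 without wild-type replicate 2.

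**Figure D4:**
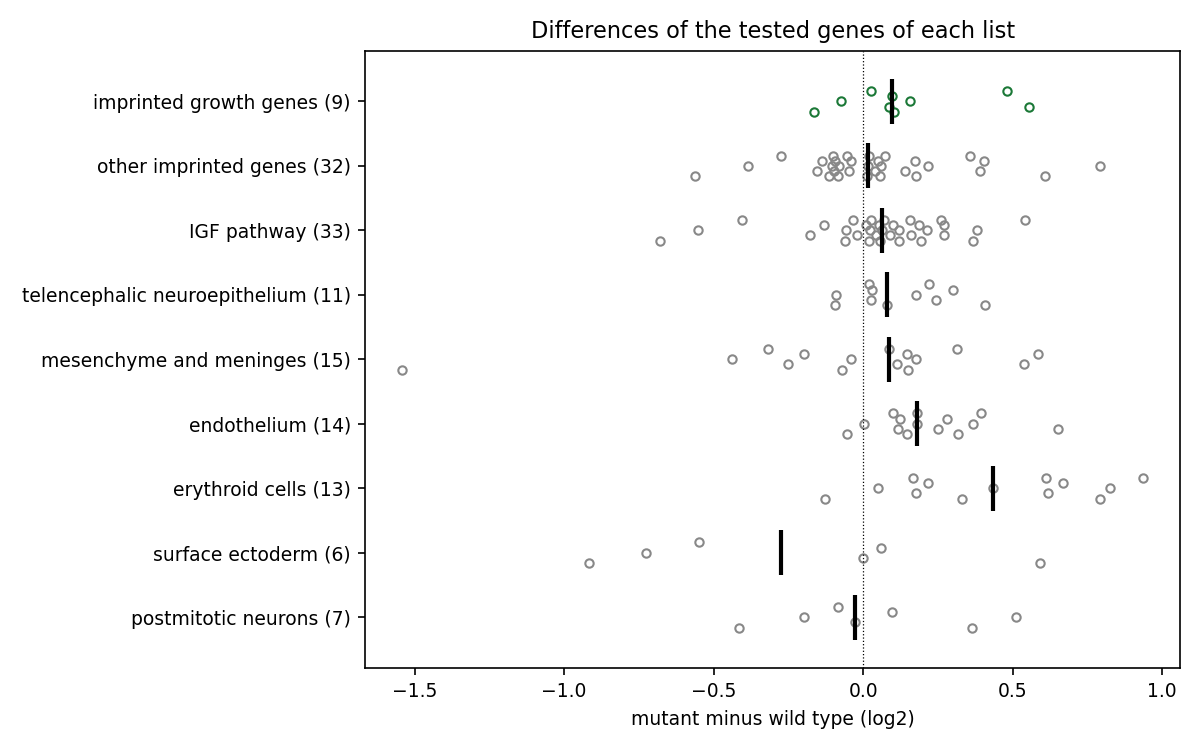
Mutant minus wild-type difference (log2) of each tested gene, by its brightest probe set, for the imprinted growth genes (green) and the other lists (grey), with the number of genes in brackets; black bars are medians. The medians are 0.10 for the imprinted growth genes, 0.01 for the other imprinted genes and 0.43 for the erythroid list.

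Igf2, H19, Dlk1 and Mest are also made by mesenchyme and vessels, so markers of neighbouring tissue are set beside them. Mesenchyme and meninges markers were higher for 8 and lower for 7 of 15 tested genes, with a median of 0.09 and a log2 sum of 13.19 and 13.35 in the mutant arrays and 13.38 and 13.34 in the wild-type arrays. Dcn, Ogn and Twist2 were dim in every probe set. Prrx2, a homeobox gene of mesenchyme, differed by 0.58 (SE 0.14), and Postn, a matrix protein, by -1.54 (SE 0.43), with mutant values under the dim level. With the pseudocount of 16 the Postn difference was -0.68, and without wild-type replicate 2 it was -1.01. Collagen gene Col3a1 read 12.01 and 12.17 in the mutant arrays and 12.34 in both wild-type arrays. Mesenchymal transcripts were thus present in all 4 arrays, and their part in the levels of the members was not tested.

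Surface ectoderm markers had 2 of 6 tested genes higher and 3 lower, with a median of -0.27. The remaining gene, Cldn6, read the same value, 4.07, in every array, so its difference of 0 is not a measured equality. Krt18, a keratin of simple epithelia, differed by -0.73 (SE 0.10) and Epcam, an epithelial adhesion protein, by -0.92 (SE 0.30), or -0.58 without wild-type replicate 1. Cdh1, the epithelial cadherin, lay on the other side at 0.59 (SE 0.14) without overlap, and is named for that, outside the rule on size. Krt5, Krt14, Krt7 and Esrp1 were dim in every probe set, and the log2 sum was 8.62 and 8.72 in the mutant arrays and 8.97 and 8.72 in the wild-type arrays. Postmitotic neuron markers were higher for 3 and lower for 4 of 7, with the microtubule protein Dcx at 0.51 (SE 0.12; 0.32 with the pseudocount) and the neurofilament Nefm at -0.41 (SE 0.11). Mapt, Nefl and Snap25 were dim, and the log2 sum was 10.94 and 10.92 in the mutant arrays and 10.96 and 11.19 in the wild-type arrays. Among neuroepithelium markers 9 of 11 had a higher mutant mean, against 49.9% of all tested genes. With 1 array left out this count ran from 6 to 9. Notch1 differed by 0.41 (SE 0.15), or 0.24 without wild-type replicate 1, and Lhx2 by 0.30 (SE 0.10). Their log2 sum was 15.72 and 15.69 in the mutant arrays and 15.56 and 15.57 in the wild-type arrays, and that of the imprinted growth genes was 15.81 and 15.92 in the mutant arrays and 15.78 and 15.77 in the wild-type arrays. The part of these tissues in the members' levels was not tested. None of these genes passed the adjusted threshold.

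The genes most like Peg10, the member with the largest difference, were sought over 9839 other genes by the distance between the 4 array values after each probe set's own mean was taken off. They were Slc38a5, Polrmt, Sesn3, Lrp6 and Acrbp, at distances of 0.21 to 0.32 log2 units. All 5 share with Peg10 a first wild-type array that was the lowest and a second mutant array that was the highest. The same search for Plagl1, chosen after its values were seen, gave Rgs16, Anxa6, Pmp22, Twnk and Plk2 at distances of 0.05 to 0.08. Rgs16 read 7.94 and 7.96 in the mutant arrays, against 7.40 and 7.53 in the wild-type arrays. Within a distance of 0.2 lay 75 genes for Plagl1 and 0 for Peg10, and with 4 arrays such likeness is a description of these arrays.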

How the data were processed

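RNA (10 µg in total per array) from each of the 4 samples was hybridised to an Affymetrix rat array, per the labels' protocols. The authors deposited 1 log2 value per probe set and array, made with GCRMA per the submitters' processing notes; which version is not stated there. This method subtracts a sequence-based background, normalizes between arrays and summarises probes. Close to the lowest value, 2.07, no difference can be measured. Some probe sets also repeat 1 value at a higher level, such as Cldn6 at 4.07 in all 4 arrays. A difference near 0 in such a probe set is not a measured equality. That the scale is log2 follows from the range of the values, which end at 16.13. Arrays give no read depth, and their number limits the precision.

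Controls (57 probe sets) were left out. The platform annotation gave 1 symbol to 20826 probe sets, several to 436 and none to 9780; all 15 member probe sets matched RefSeq by Entrez identifier. Probe sets with a mean under the 40th percentile (3.21; 12417 probe sets) were left out as dim. limma 3.58.1 in R 4.3.3 fitted genotype with lmFit and eBayes on 2 residual degrees of freedom, with Benjamini-Hochberg adjustment over 18625 probe sets. This procedure was also run on simulated arrays with independent noise. The simulation held no shift shared by same-numbered arrays, so it does not check the calls under such a shift. The members and gene lists were chosen with earlier results of these data known. Named were all members, the 8 largest differences among other imprinted and among IGF pathway genes, and the 2 largest of each marker list. Alternatives changed the filter, pseudocount, normalization, replicate block, arrays used and probe sets per gene.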

Additional observations from a re-analysis of the deposited data

How the results depend on the processing

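Over every alternative run, 0 member probe sets passed the adjusted threshold. Over all tested probe sets 2 passed after median centring, 2 after quantile normalization and 1 with the stricter filter, none of them a member. Plagl1, Sgce, Mest and Ndn kept their direction under all alternatives. After median centring and after quantile normalization 0 member probe sets lay wholly below wild type, so the separation of Ndn was lost. Its closest pairing, of -0.02, was between mutant replicate 1 and wild-type replicate 2. The medians of these arrays, 8.22 and 8.33, lay farther apart than that, and median centring takes this gap off. The cause under quantile normalization was not tested. The surface ectoderm median of -0.27 was 0 with no filter, -0.14 with the pseudocount and -0.067 with the stricter filter. With the stricter filter, which tests fewer genes, the mutant mean was higher for 5 mesenchyme, 8 endothelial, 1 surface ectoderm and 1 neuron gene. Too dim to have a value under it were Peg10 among the members and, among the other genes compared across settings, Calcr, Cobl, Dcx, Epcam, Hemgn, Igfbp7, Irs1, Osbpl5, Pik3r1, Postn, Slc38a4, Trappc9 and Usp29.

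With 1 array left out, the lone array of a genotype is assumed to vary like the others. The members' median then ran from -0.035 to 0.16, and the member probe sets without overlap from 2 to 9 higher and from 1 to 6 lower, since fewer arrays must be in order. Differences that changed sign ran from -0.26 to 0.43 for Dlk1, -0.051 to 0.36 for Igf2, -0.092 to 1.20 for Peg10, -0.20 to 0.052 and -0.038 to 0.0024 for Igf2r, and -0.037 to 0.090, -0.20 to 0.27 and -0.18 to 0.20 for Grb10. The same held for H19 (-0.12 to 0.47), Meg3 (-0.12 to 0.22), Casd1 (-0.45 to 0.47), Copg2 (-0.28 to 0.046), Ddc (-0.066 to 0.21), Cobl (-0.18 to 0.29), Slc38a4 (-0.70 to 0.14), Hmga2 (-0.97 to 0.16) and Furin (-0.019 to 0.56). List medians ran from -0.065 to 0.084 for other imprinted genes, -0.068 to 0.16 for IGF pathway genes, 0.28 to 0.59 for erythroid, 0.095 to 0.26 for endothelial, -0.025 to 0.12 for mesenchyme, 0.032 to 0.17 for neuroepithelium, -0.10 to 0.14 for neuron and -0.37 to -0.015 for surface ectoderm genes. IGF pathway genes with a higher mutant mean numbered 12 to 26.

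The replicate numbers are shared by both genotypes. The deviations of same-numbered arrays correlated at 0.43 across probe sets, but 2 pairs and no label of a shared litter or day do not make a pairing. With the replicate number as a block, 0 probe sets passed (1194 at an unadjusted p under 0.05, against 680 without it), and the Plagl1 difference of 0.48 had an adjusted p of 0.736.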
